A study of Mus musculus with 4 samples.

Results

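The genes described here are regulators of the epithelial-mesenchymal transition (EMT), measured in 4T1Br cells, a line of mouse mammary carcinoma cells derived from 4T1 that homes to the brain. They were chosen by name, with earlier results of these data known. A probe set was used where the platform annotation gave it 1 of these symbols and no other. Of 10 genes named, 9 were found, on 10 probe sets, out of 22180 named genes on the array. The EMT drivers were Snai1, Snai2, Twist1, Zeb1, Zeb2 and Vim, and the epithelial keepers were Esrp1, Esrp2, Grhl2 and Ovol1. Zeb2 stood on 2 probe sets that carry a further symbol, so it was not analysed here.

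Both groups were 4T1Br cells, called 4T1 in the titles, infected with a hairpin lentivirus and selected with puromycin. The shControl group (2 arrays) carried a control hairpin and the shYTHDF3 group (2 arrays) a hairpin against YTHDF3, a cytoplasmic reader of N6-methyladenosine in messenger RNA. The labels do not give the hairpin sequences and do not state whether the 2 arrays of a group are separate cultures. The p-values therefore reflect the spread between these arrays alone, and that spread may be technical. Total RNA was read on Affymetrix arrays as log2 expression, 1 number per probe set and array. The comparison asks which transcripts differed in abundance between the groups. Neither protein, nor splicing, nor translation was read.

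EMT is the switch by which epithelial cells lose their junctions and take on a migratory, mesenchymal form, and carcinoma cells can pass through it in part. Snail, Slug, Twist and ZEB proteins are DNA-binding factors that recognise E-box elements, and Snail and ZEB proteins repress E-cadherin and other junction genes through them. GRHL2 and OVOL1 keep the epithelial programme on and oppose ZEB1, and the ESRP proteins hold transcripts in their epithelial splice forms.

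The promoters were searched for motifs that some of the members bind. An E2-box, the form of E-box bound by Snail and ZEB proteins, was searched as CAGGTG on either strand (CACCTG on the other) in the 250 bases before each annotated start, in RefSeq promoters of build GRCm38.p6. It was present in 17.2% of all 32851 promoters and in 16.3% of the 12881 promoters of genes tested here. Among 23 promoters of 18 epithelial effector genes, a list of junction, keratin and other epithelial genes, 15 held it, or 65.2%. That list was chosen by name for its tie to EMT, with earlier results of these data known. This share is therefore no independent result. None of 15 promoters of 15 mesenchymal effector genes held it. The motif AACCGGTT, bound by Grainyhead factors such as GRHL2, was in 0.116% of all promoters and in none of these 23. A match is a string of letters, not a site shown to be bound. The table held promoters for 4 of the 10 members, namely Snai1, Twist1, Zeb2 and Vim, and of these Snai1 alone had an E2-box in this window; the 4 promoters listed for Zeb2 held none. The sequences shown are those of Snai1, whose product is known to bind its own promoter, of Twist1, the driver with the largest difference, of Lsr and Crb3, which held several matches, of the keratin gene Krt8, which held 1, and of Marveld2, a riser that held none. Each runs 5′ to 3′ up to the base before the start, with E2-boxes in capitals. They lie at chr2:167537945-167538194 (+ strand), chr12:33957421-33957670 (+ strand), chr7:30973470-30973719 (- strand), chr17:57061951-57062200 (+ strand), chr15:102004343-102004592 (- strand) and chr13:100616972-100617221 (- strand).
Snai1: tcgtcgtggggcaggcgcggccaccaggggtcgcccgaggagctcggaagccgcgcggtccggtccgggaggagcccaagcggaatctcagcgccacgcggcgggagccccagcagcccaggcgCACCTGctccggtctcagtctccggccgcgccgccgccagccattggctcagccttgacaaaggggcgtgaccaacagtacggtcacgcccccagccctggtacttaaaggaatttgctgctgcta
Twist1: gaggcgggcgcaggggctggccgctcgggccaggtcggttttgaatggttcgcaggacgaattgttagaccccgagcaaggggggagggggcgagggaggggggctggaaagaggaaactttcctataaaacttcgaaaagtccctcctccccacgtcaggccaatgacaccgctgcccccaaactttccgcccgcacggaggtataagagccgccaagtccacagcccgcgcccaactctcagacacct
Lsr: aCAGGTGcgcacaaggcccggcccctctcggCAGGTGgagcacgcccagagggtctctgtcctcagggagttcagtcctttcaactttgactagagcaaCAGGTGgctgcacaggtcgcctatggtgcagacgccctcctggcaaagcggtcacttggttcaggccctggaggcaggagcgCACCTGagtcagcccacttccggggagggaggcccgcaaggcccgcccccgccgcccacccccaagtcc
Crb3: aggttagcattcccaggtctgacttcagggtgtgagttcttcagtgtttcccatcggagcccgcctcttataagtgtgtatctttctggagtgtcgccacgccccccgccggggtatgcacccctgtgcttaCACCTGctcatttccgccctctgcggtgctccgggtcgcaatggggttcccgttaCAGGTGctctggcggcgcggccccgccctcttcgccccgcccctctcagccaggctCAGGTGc
Krt8: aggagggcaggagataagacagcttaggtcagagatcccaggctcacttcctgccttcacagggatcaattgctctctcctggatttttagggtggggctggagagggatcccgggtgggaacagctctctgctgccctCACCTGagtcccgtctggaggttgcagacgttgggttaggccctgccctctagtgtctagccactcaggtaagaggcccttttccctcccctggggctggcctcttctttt
Marveld2: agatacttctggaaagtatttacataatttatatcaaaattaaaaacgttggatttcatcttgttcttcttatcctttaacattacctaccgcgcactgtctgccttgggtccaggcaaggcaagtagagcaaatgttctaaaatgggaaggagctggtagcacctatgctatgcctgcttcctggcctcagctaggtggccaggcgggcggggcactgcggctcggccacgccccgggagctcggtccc
The Snai1 match began 126 bases before the start. Lsr held 4 matches, at 249, 219, 151 and 69 bases before it, and Crb3 held 3, at 118, 63 and 7. The Krt8 match began at 111.

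**Figure D1:**
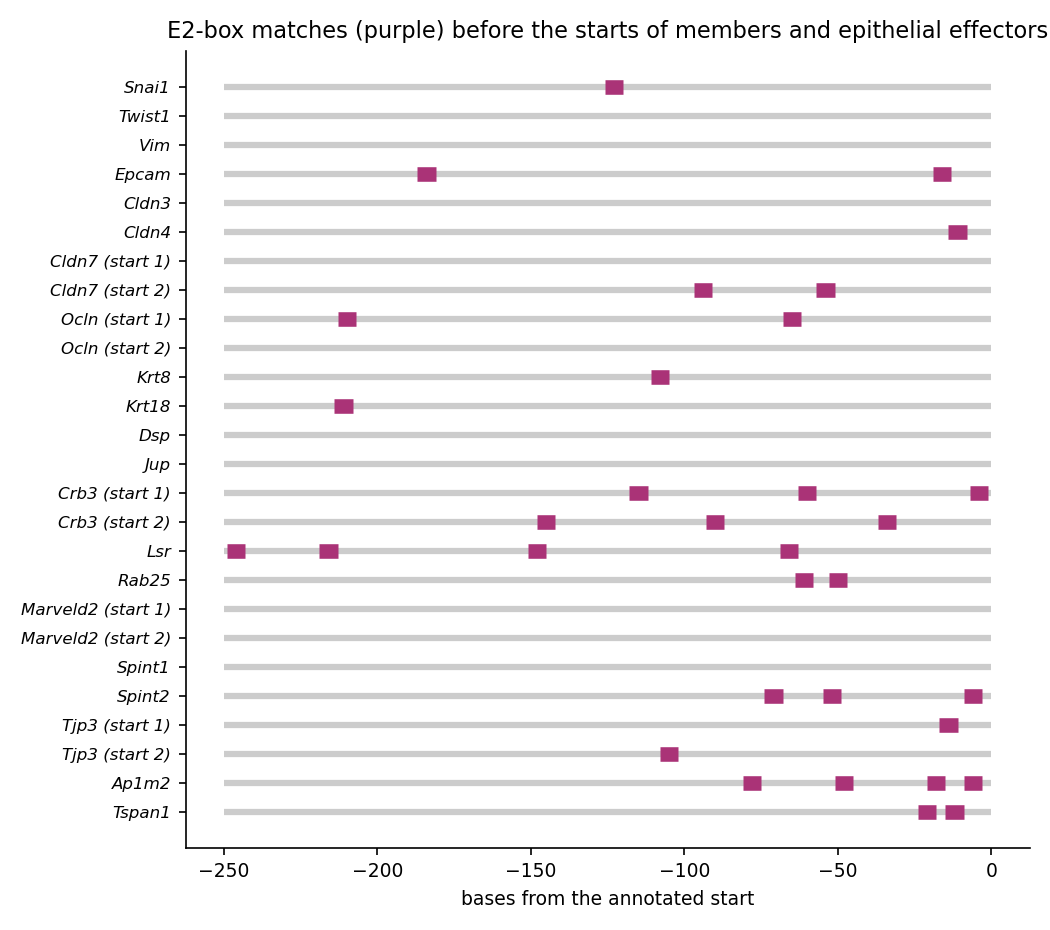
Position of each E2-box (purple, CAGGTG on either strand) in the 250 bases before the annotated starts of member and epithelial effector genes; the horizontal axis gives bases from the start, and a row is 1 promoter. Lsr and Ap1m2 hold 4 matches each, while Twist1, Vim, Jup and Marveld2 hold none; the Zeb2 promoters are in the counts but are not drawn.

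The knockdown was visible in the targeted transcript. Ythdf3 read 8.98 and 8.81 with the control hairpin and 8.21 and 8.16 with the YTHDF3 hairpin, which left 61.1% of the control level (limma adjusted p = 0.0355). That call ended when dim probe sets were kept (limma adjusted p = 0.0866) and without any 1 array (0.141 to 0.188). Over 13056 genes above background, limma called 356, or 2.73% (1.28% higher and 1.45% lower in shYTHDF3). Median expression over all probe sets lay between 4.42 and 4.47 on the 4 arrays. Background was taken as log2 4.28, the 95th percentile of 1108 olfactory receptor probe sets, whose genes are not expected in this line. The luminal keratin genes Krt8 and Krt18 lay between 10.04 and 11.13 on every array, whereas Epcam, Cldn7 and the basal keratin gene Krt14 lay below background on average and Cdh1 only just above it. Of the markers of other cells measured, 6 of 10 for fibroblasts and pericytes, 2 of 8 for leukocytes and 2 of 6 for endothelium were above background. Those above were Pdgfra, Dcn, Pdgfrb, Col1a1, Col1a2 and Col3a1, the leukocyte markers Cd14 and Cd68, and the endothelial markers Vwf and Cdh5. Ptprc, Pecam1, Lum, Fap and Postn were among those below it.

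Of the 9 members measured, 4 were above background and 5 were not, against 41.1% of all named genes below it. The split ran through both classes: Twist1, Snai1 and Vim among the drivers and Esrp2 among the keepers were above, and Snai2, Zeb1, Esrp1, Grhl2 and Ovol1 were below. None of the 4 members tested passed. Limma called 0 of 3 drivers and 0 of 1 keeper, against 2.73% of all genes tested. With an intensity trend in its variance model it also called 0 of each, against 10.9% of all genes tested. At an unadjusted p under 0.05 the count was 1 driver, Twist1, and 0 keepers, against 22.6% of all genes tested. The groups did not overlap for Twist1 and Esrp2 and overlapped for Snai1 and Vim, while 54.0% of all genes tested did not overlap.

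Twist1, a basic helix-loop-helix factor that drives mesenchymal conversion and metastasis, read 8.19 and 8.04 with the control hairpin and 7.84 and 7.76 with the YTHDF3 hairpin. Both shYTHDF3 arrays lay under both shControl arrays, as happened in that direction for 25.7% of genes tested. The difference was -0.31 (log2; SE 0.10, 95% interval -0.56 to -0.06), which is 80.6% of the control level, with limma adjusted p = 0.153 and unadjusted p = 0.0223, which did not pass. Across the other settings with all 4 arrays the limma adjusted p of Twist1 ran from 0.0574 to 0.291.

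Snai1 encodes Snail, a zinc finger repressor of E-cadherin whose transcript and protein both turn over quickly. It read 5.52 and 5.68 with the control hairpin and 5.31 and 5.53 with the YTHDF3 hairpin. The groups overlapped, since the higher shYTHDF3 array exceeded the lower shControl array. The Snai1 difference was -0.18 (log2; SE 0.12, 95% interval -0.47 to 0.11; limma adjusted p = 0.423).

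Vim encodes vimentin, the intermediate filament protein of mesenchymal cells, and is an outcome of EMT rather than a factor that binds DNA. Its brighter probe set read 12.80 and 12.89 with the control hairpin and 12.90 and 12.71 with the YTHDF3 hairpin, so the highest and the lowest value both came from shYTHDF3. The second Vim probe set read 9.05 and 9.24 with the control hairpin and 9.16 and 9.01 with the YTHDF3 hairpin. The Vim difference was -0.04 (log2; SE 0.11, 95% interval -0.31 to 0.22; limma adjusted p = 0.855), and -0.06 on the second probe set. The interval runs from 80.6% to 117% of the control level. The sign of the Vim difference turned with quantile normalization applied once more, to 0.0068, and without shControl 2 or shYTHDF3 2.

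Esrp2, a splicing regulator of epithelial cells, was the one keeper above background. It read 5.76 and 5.85 with the control hairpin and 5.95 and 5.94 with the YTHDF3 hairpin. Both shYTHDF3 arrays lay above both shControl arrays, as in 28.3% of genes tested. The Esrp2 difference was 0.14 (log2; SE 0.09, 95% interval -0.09 to 0.36) and did not pass (limma adjusted p = 0.426).

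**Figure D2:**
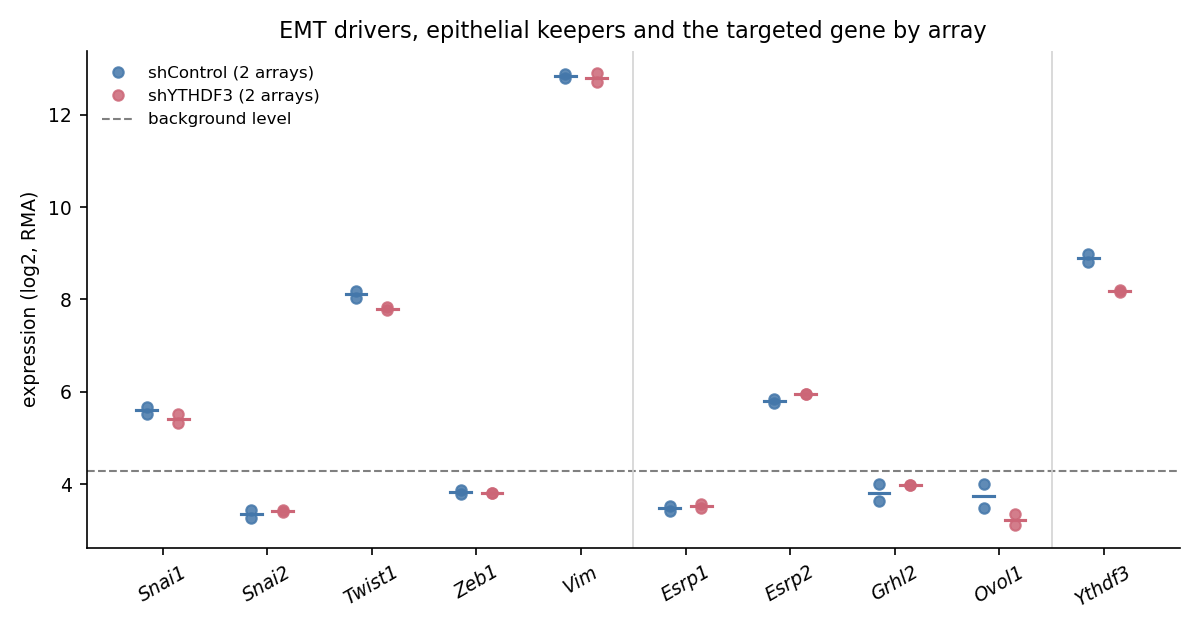
Expression (log2, RMA) of each member and of Ythdf3 on the 2 shControl (blue) and 2 shYTHDF3 (red) arrays; points are arrays, short lines are group means and the dashed line is the background level of 4.28. Snai2, Zeb1, Esrp1, Grhl2 and Ovol1 lie under the line on all 4 arrays, and the groups are apart for Twist1, Esrp2, Ovol1 and Ythdf3; heights of different genes are not compared, because probe sets differ in response.

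The remaining members were not tested, and no fold is given for them because both groups were under background. Zeb1, a zinc finger and homeodomain repressor, read 3.87 and 3.79 with the control hairpin and 3.81 on each shYTHDF3 array. The last pair was identical in the deposited digits, as it was for 148 of the 41345 probe sets. Snai2, which encodes Slug, read 3.43 and 3.27 with the control hairpin and 3.44 and 3.40 with the YTHDF3 hairpin. Neither of these drivers reached the background level on any array. Their means over the 4 arrays stood at percentiles 89.4 (Zeb1) and 78.2 (Snai2) of the olfactory receptor probe sets.

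Among the keepers, Esrp1, the closest relative of Esrp2, read 3.53 and 3.41 with the control hairpin and 3.48 and 3.58 with the YTHDF3 hairpin. Grhl2, a Grainyhead factor that activates junction genes, read 3.63 and 3.99 with the control hairpin and 3.99 and 3.97 with the YTHDF3 hairpin. The gap between the 2 Grhl2 control arrays was wider than the gap between the group means, 3.81 and 3.98. Ovol1, a zinc finger repressor of mesenchymal genes, read 3.48 and 4.00 with the control hairpin and 3.35 and 3.11 with the YTHDF3 hairpin. The Ovol1 groups did not overlap, but the 2 control arrays also lay 0.37 (SD) around their mean and every value was under background.

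The 4 values of each leading member, taken as deviations from their own mean, were set beside those of the other genes tested. Closest to Twist1 were Fkbp1a, Dock5 and Ndufv3, at Euclidean distances of 0.0014, 0.014 and 0.016 (log2). Closest to Esrp2 were Lamp1, Fbxl14 and Wdr59, at 0.010, 0.011 and 0.012. With 4 arrays this only describes which profiles resemble each other.

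**Figure D3:**
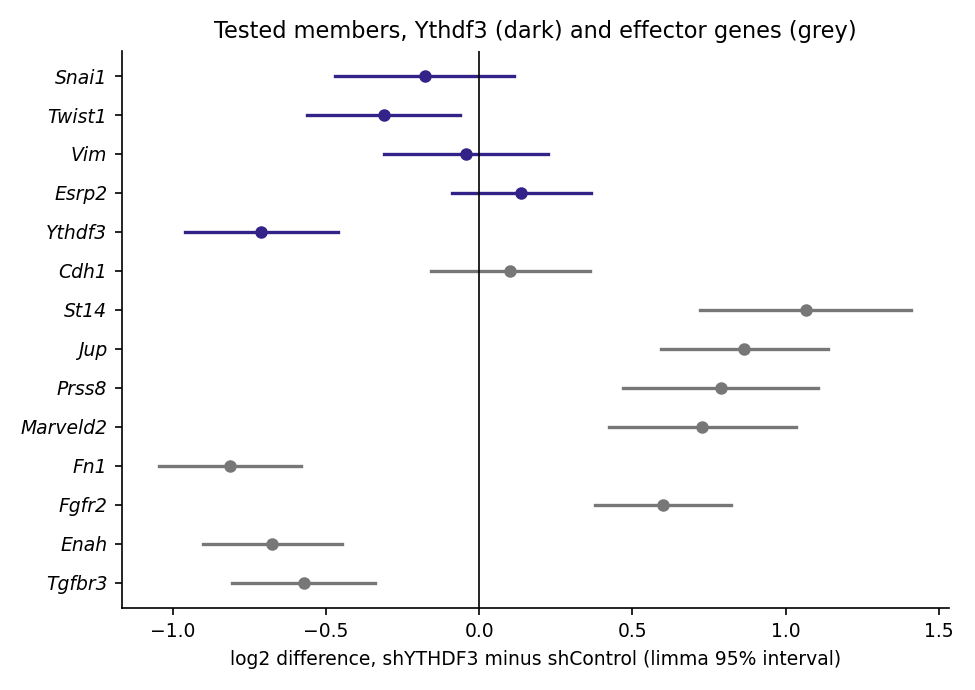
Difference in log2 expression, shYTHDF3 minus shControl, with limma's 95% interval, for the 4 tested members and Ythdf3 (dark) and for Cdh1 and the effector, splicing and TGF-beta genes past the test (grey). The intervals of Snai1, Vim, Esrp2 and Cdh1 include 0; the Twist1 interval ends at -0.06 and its adjusted p is 0.153.

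Calls were found among the effector genes, listed by name as epithelial or mesenchymal genes. Control of each of them by the members was not tested. Of 18 epithelial effectors above background, 4 rose, 0 fell and 14 did not pass, or 22.2% called against 2.73% of all genes. Their median difference was 0.38, against 0.01 over all genes tested, and at an unadjusted p under 0.05 limma had 12 higher and 1 lower (12.2% and 10.4% of all genes). The list was drawn up with results of these data known, so its calls, its median and its unadjusted counts are no independent evidence. The same holds for the other lists below. St14, which encodes the membrane serine protease matriptase, read 5.10 and 5.31 with the control hairpin and 6.43 and 6.12 with the YTHDF3 hairpin, a rise of 1.07 (log2; SE 0.14, limma adjusted p = 0.0312). Prss8 encodes prostasin, a membrane serine protease that works together with matriptase. It read 6.24 and 6.27 with the control hairpin and 6.88 and 7.20 with the YTHDF3 hairpin, a rise of 0.79 (log2; SE 0.13, limma adjusted p = 0.0433).

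Jup encodes plakoglobin, which links cadherins to the cytoskeleton in desmosomes and adherens junctions. It read 7.34 and 7.52 with the control hairpin and 8.36 and 8.23 with the YTHDF3 hairpin, a rise of 0.87 (log2; SE 0.11, limma adjusted p = 0.0297). Marveld2 encodes tricellulin, the protein that seals junctions where 3 cells meet, and read 5.78 and 5.72 with the control hairpin and 6.62 and 6.33 with the YTHDF3 hairpin. That was a rise of 0.73 (log2; SE 0.12, limma adjusted p = 0.0471). In these genes every shYTHDF3 array was above every shControl array, as in 28.3% of genes tested. They were picked for being called higher, so this separation adds no evidence. All 4 calls were lost when dim probe sets were kept (limma adjusted p from 0.0725 for St14 to 0.109 for Marveld2) and without any 1 of the 4 arrays, where their limma adjusted p ran from 0.100 to 0.196; their differences ran from 0.58 to 1.22 with an array left out.

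Cdh1, which encodes E-cadherin, the textbook target of Snail, Twist and ZEB proteins, did not pass. It read 4.37 and 4.46 with the control hairpin and 4.43 and 4.61 with the YTHDF3 hairpin, and the groups overlapped. The Cdh1 difference was 0.10 (log2; SE 0.11, 95% interval -0.16 to 0.36; limma adjusted p = 0.612). Epcam, an epithelial adhesion molecule, read 3.94 and 3.80 with the control hairpin and 4.05 and 3.95 with the YTHDF3 hairpin, under background. With the intensity trend limma called 9 epithelial effectors higher, the 4 above and Ocln, Krt18, Lsr, Spint2 and Krt8, and 1 lower, Krt19, while it called 10.9% of all genes. Ocln (occludin) differed by 0.72 and Krt18 by 0.57, and Krt19, a simple-epithelial keratin, by -0.53.

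The E2-box was set beside the calls. Of 8 tested effectors with a match in at least 1 promoter, 0 were called by limma, against 2.73% of all genes tested. Of these 8, 7 were higher in shYTHDF3, and the median difference was 0.38, from -0.03 for Cldn4 to 0.72 for Ocln. With the intensity trend limma called Ocln, Krt18, Lsr, Spint2 and Krt8 of these 8 higher, while it called 10.9% of all genes tested. Of 4 with a promoter in the table and no match, all 4 higher in shYTHDF3, Jup and Marveld2 were called with and without the trend. Cldn3 and Spint1 were called in neither case, and the median of the 4 was 0.49. Another 6, St14, Prss8 and Cdh1 among them, had no promoter in the table. These groups are small and were not compared by a test.

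Mesenchymal effectors lay on both sides of 0, with 9 higher and 11 lower in shYTHDF3. Of 20 tested, 1 fell, 0 rose and 19 did not pass, or 5% called against 2.73% of all genes tested, with a median of -0.04. By limma's p before adjustment, 2 were higher and 4 lower at under 0.05, against 12.2% and 10.4% of all genes tested. With the intensity trend Tgfbi, which encodes a matrix protein induced by TGF-beta, passed as higher by 0.46 (limma adjusted p = 0.0426), and Fn1 and the integrin gene Itgav passed as lower. Fn1, which encodes the matrix protein fibronectin, read 12.33 and 12.38 with the control hairpin and 11.59 and 11.50 with the YTHDF3 hairpin, a difference of -0.81 (log2; SE 0.09, limma adjusted p = 0.0262). The Fn1 call ended without the filter (limma adjusted p = 0.0667) and without any 1 array (0.123 to 0.177). Cdh2, which encodes N-cadherin, read 3.82 and 4.29 with the control hairpin and 3.99 and 4.14 with the YTHDF3 hairpin, under background on average and not tested.

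**Figure D4:**
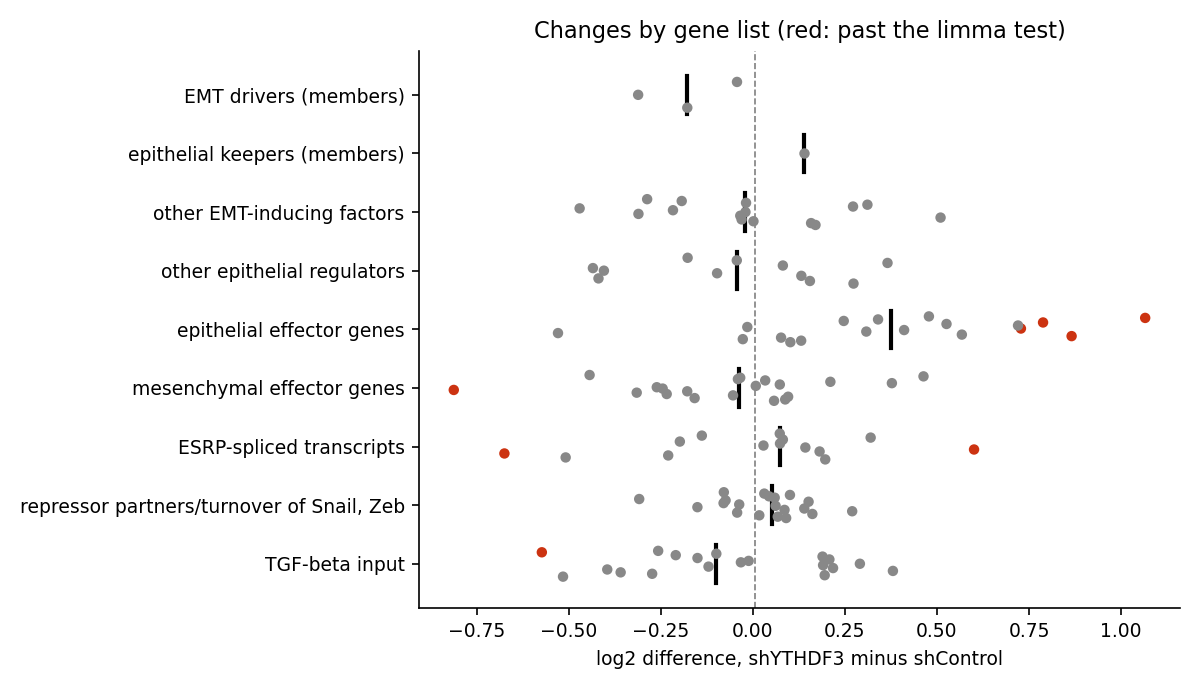
Difference in log2 expression for every tested gene of each list; points are genes, red where limma's adjusted p was under 0.05, black bars are list medians and the dashed line is the median of all genes tested. The epithelial effectors have a median of 0.38 with 4 red points on the right, and the tested drivers and the 1 tested keeper have none.

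Transcripts whose splicing the ESRP proteins switch were tested for abundance only, since a probe set summarises a whole gene here. Of 14, 1 rose, 1 fell and 12 did not pass, or 14.3% called against 2.73% of all genes tested, with a median of 0.07. Before adjustment 1 was higher and 2 lower at a limma p under 0.05, against 12.2% and 10.4% of all genes tested. With the intensity trend limma also called Cd44, at -0.51 (limma adjusted p = 0.0145), while it called 10.9% of all genes tested. Fgfr2, a fibroblast growth factor receptor with epithelial and mesenchymal splice forms, read 9.72 and 9.75 with the control hairpin and 10.31 and 10.36 with the YTHDF3 hairpin, a rise of 0.60 (log2; SE 0.09, limma adjusted p = 0.0379). Enah encodes an actin regulator with an epithelial exon, and read 9.19 and 9.25 with the control hairpin and 8.51 and 8.58 with the YTHDF3 hairpin, a difference of -0.67 (log2; SE 0.09, limma adjusted p = 0.0322). Both calls ended without the filter (limma adjusted p of 0.0946 for Fgfr2 and 0.0822 for Enah) and without any 1 array (0.153 to 0.207).

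Other factors of the same network had no call. Limma called 0 of 15 other EMT-inducing factors, against 2.73% of all genes tested, and lists this short cannot tell 0 calls from that share. Before adjustment 3 were higher and 3 lower at a limma p under 0.05, against 12.2% and 10.4% of all genes tested. The chromatin protein gene Hmga2 differed by 0.51 (limma adjusted p = 0.0731) and Sox9 by -0.47 (limma adjusted p = 0.131), and both passed with the intensity trend, as did Tcf4. Limma called 0 of 11 other epithelial regulators, 1 being higher and 2 lower at p under 0.05 before adjustment, beside the same shares of all genes tested. Klf5 differed by -0.43 (limma adjusted p = 0.0680, and 0.0048 with the intensity trend) and the pioneer factor gene Foxa1 by -0.42 (limma adjusted p = 0.245). The medians of these lists were -0.02 and -0.04.

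Repressor partners of Snail and ZEB proteins and enzymes that govern their turnover gave 0 calls of 20 by limma, against 2.73% of all genes tested. At an unadjusted limma p under 0.05, 0 were higher and 1 lower, against 12.2% and 10.4% of all genes tested, and the median was 0.05. The kinase gene Lats2 differed by -0.31 (limma adjusted p = 0.178) and the phosphatase gene Ctdsp1 by 0.27 (limma adjusted p = 0.539), the latter turning to -0.077 without shControl 1. Of 19 genes of TGF-beta input, the signal that induces the drivers in many epithelia, 1 fell, 0 rose and 18 did not pass, or 5.26% called against 2.73% of all genes tested, with a median of -0.10. Before adjustment 2 were higher and 6 lower at a limma p under 0.05, against 12.2% and 10.4% of all genes tested. With the intensity trend limma called 1 higher (Ltbp3) and 3 lower (Ltbp1, Id1 and Tgfbr3), while it called 10.9% of all genes tested. The co-receptor gene Tgfbr3 read 8.09 and 8.21 with the control hairpin and 7.59 and 7.57 with the YTHDF3 hairpin, a difference of -0.57 (log2; SE 0.09, limma adjusted p = 0.0440). That call ended without the filter (limma adjusted p = 0.110) and without any 1 array (0.158 to 0.225). The microRNA loci that hold ZEB and Snail transcripts down, the miR-200, miR-205 and miR-34 loci, were all below background on the 8 precursor probe sets measured.

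Markers of other cells, and of mammary carcinoma cells, were summed on the linear scale beside these results. The fibroblast and pericyte markers (10 of 10 measured, 6 above background) summed to 1017 and 1051 with the control hairpin and to 647 and 665 with the YTHDF3 hairpin, with Dcn differing by -2.65 and Pdgfra by -0.61. Limma called both; without any 1 array their adjusted p ran from 0.0272 to 0.133 (Dcn) and from 0.163 to 0.216 (Pdgfra). The Pdgfra call (limma adjusted p = 0.0471) also ended without the filter (0.113) and with the arrays shifted to a common median (0.0508). The other 4 tested did not pass and lay on both sides of 0, Pdgfrb at 0.21, Col1a1 at 0.10, Col1a2 at -0.05 and Col3a1 at -0.23. The list median of -0.14 turned to 0.02 without the filter and to 0.08 without shControl 2. The leukocyte markers (8 of 9 measured, 2 above background) summed to 604 and 634 with the control hairpin and to 449 and 516 with the YTHDF3 hairpin, with Ptprc, Cd3e and Itgam under background. There Cd68 differed by -0.72 and Cd14 by -0.30, neither past the test. The endothelial sums were 96.4 and 97.7 with the control hairpin and 96.1 and 102 with the YTHDF3 hairpin, with the only markers above background, Vwf and Cdh5, at 0.09 and -0.05. The mammary carcinoma markers (10 of 11 measured, 7 above background) summed to 2799 and 3015 with the control hairpin and to 3822 and 4051 with the YTHDF3 hairpin, and Krt7 was the 1 of them that passed (limma adjusted p = 0.00816, and 0.0514 to 0.160 without any 1 array). Krt8 and Krt18, which weigh most in that sum, differed by 0.31 and 0.57, and Krt19 and Muc1 by -0.53 and -0.25, none of these 4 past the test. The median of the list was 0.10. Krt8, Krt18, Krt19, Cldn7, Epcam and Cdh1 also belong to the epithelial effector list, so the carcinoma marker sum is no separate reading of those effectors. The part of all these markers in the effector and member differences was not tested.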

How the data were processed

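The authors deposited log2 expression values normalised with RMA, per the submitters' processing notes. Neither software version nor log base is stated there; log2 is inferred from RMA and from the range of values. Because RMA equalises array distributions, a shift of most genes one way would be invisible. The number of arrays limits the precision.

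Of 41345 probe sets, 23521 carried 1 symbol, 1814 several and 16010 none; RefSeq's current symbol was taken for 23328 by Entrez identifier, and sets with several symbols were not used for naming. The brightest probe set on average stood for its gene. Genes above background, 13056 in all, were tested two-sided with limma 3.58.1 (lmFit, eBayes; R 4.3.3), and p-values were adjusted over all of them by Benjamini-Hochberg (threshold 0.05). Differences are shYTHDF3 minus shControl, with moderated 95% intervals. The steps were run on simulated data drawn from limma's own variance model, with no intensity trend. Such data check the steps and not whether that model suits these arrays.

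Members and lists were chosen with earlier results of these data known. Named are all members, Ythdf3, Cdh1 and Cdh2, the genes of each list past the threshold (at most 4 each way) or else its 2 largest differences, and the 3 profiles nearest to Twist1 and to Esrp2; any other gene was chosen after its values were seen. Alternatives were 2 other filters, an intensity trend (also robust), repeated quantile normalization, a common median, averaged probe sets, the replicate number as a block, and omission of each array. A group left with 1 array borrows its spread from the other group. Promoters are RefSeq's, build GRCm38.p6, matched by symbol.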

Additional observations from a re-analysis of the deposited data

How the results depend on the processing

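With every setting run, limma called 0 drivers and 0 keepers. The count over all genes, 356, was 43 with no filter on low values, 1426 with an intensity trend, 1465 with robust estimation added, 51 with the replicate block and 0 to 12 with 1 array left out, where fewer residual degrees of freedom remain. Samples with the same number did not deviate together (correlation -0.039 for the number 1 arrays), so the numbers are not taken as pairs. The sign of 3 differences that did not pass turned. Vim was 0.0068 with repeated quantile normalization and ran from -0.14 without shYTHDF3 1 to 0.0038 without shControl 2 and 0.054 without shYTHDF3 2. With 1 array left out Ctdsp1 ran from -0.077 to 0.62 and Cdh5 from -0.11 to 0.0017, the turned sign arising without shControl 1 in both. The cause was not tested. Twist1 lay between -0.38 and -0.24, Snai1 between -0.28 and -0.07 and Esrp2 between 0.09 and 0.18 with 1 array left out. The epithelial effector median lay between 0.25 and 0.40 across all settings. Of 4 epithelial effectors called, 0 were called with the block or without the filter. With the block limma's adjusted p was also above the threshold for Ythdf3 (0.0758), Fn1 (0.0724), Fgfr2 (0.0887), Enah (0.0764), Tgfbr3 (0.0979) and Pdgfra (0.0976), whereas Krt7 and Dcn passed. Members below background have no measured difference.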
